A study of Mus musculus with 18 samples.

Results

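The acute phase response genes examined here were 10 hepatic genes, namely Saa1, Saa2, Saa3, Saa4, Orm1, Orm2, Lcn2, Hp, Apcs and Crp, out of 24537 genes counted in whole mouse liver. They were taken by gene symbol, and all 10 passed the filter on low counts that left 14275 genes. The group was selected on earlier results of these same data, in which the level of Lcn2 in old mice on a high-fat diet stood out and rested largely on 1 library. Values that involve old mice on the high-fat diet are therefore given for these genes as a description without p values. The livers came from male C57BL6 mice, labelled young or old, and over 9 weeks the mice were kept on either a normal (ND) or a high-fat (HFD) diet. The 4 groups were young ND (n = 4), old ND (n = 5), young HFD (n = 5) and old HFD (n = 4), each library being poly(A) RNA from the liver of 1 mouse. No genetic change or drug was listed for any group, so the groups differed in age and diet only as far as the labels state. The liver was sequenced as a whole, and in such samples fewer cells of a type and less RNA per cell cannot be told apart.

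The acute phase response is the change in plasma proteins that the liver makes when inflammatory cytokines reach hepatocytes. Interleukin 6 acts through its receptor and STAT3, and interleukin 1 and tumour necrosis factor act through NF-kB, with C/EBP factors taking part in both arms. Serum amyloid A proteins, orosomucoids, haptoglobin and lipocalin 2 rise in mouse plasma during this response, serum amyloid P component (Apcs) is the major mouse pentraxin of the response, and C-reactive protein (Crp), which rises steeply in humans, responds little in mice. Albumin and transthyretin belong to the negative acute phase proteins, whose synthesis falls.

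Total counts ranged from 20253719 to 26461664 in young ND, from 20373560 to 26406105 in old ND, from 23642964 to 36427856 in young HFD and from 25789898 to 29093946 in old HFD. Levels are given as CPM, the counts of a gene scaled to a common library size, after scaling, and as RPKM, which also divides by transcript length, where genes are compared with each other. The HFD and the ND libraries were counted in separate tables with different strand settings, so a diet contrast cannot be told apart from the table, whereas age was compared within a table. None of the 10 genes had an exon overlapping an annotated exon of the opposite strand. Old HFD replicate 4 stood apart from all other libraries in these genes, and fold changes named below that rest on old HFD are given with it and, in the same paragraph, without it. The labelled tissue was checked against 6 hepatocyte markers, whose summed level was 53520 to 111300 CPM over all libraries, while 4 adipocyte markers summed to at most 0.263 CPM.

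Saa1 and Saa2 lie next to each other on chromosome 7 in opposite orientation (chr7:46740499-46742980, minus strand, and chr7:46751833-46754314, plus strand, GRCm38), and their coding sequences are 95.1% identical over 366 bases, with the longest identical run at 73 bases. Orm1 and Orm2 on chromosome 4 are 89.9% identical over 621 coding bases. The first 120 coding bases of both pairs are shown because the counts of the paralogs rest on the bases that differ, which are printed in capitals (GENCODE M21, GRCm38).
Saa1: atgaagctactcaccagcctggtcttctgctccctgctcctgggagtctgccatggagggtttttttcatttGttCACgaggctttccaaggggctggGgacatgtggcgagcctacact
Saa2: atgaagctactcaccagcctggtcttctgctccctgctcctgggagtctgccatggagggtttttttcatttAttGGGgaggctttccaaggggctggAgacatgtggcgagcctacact
Orm1: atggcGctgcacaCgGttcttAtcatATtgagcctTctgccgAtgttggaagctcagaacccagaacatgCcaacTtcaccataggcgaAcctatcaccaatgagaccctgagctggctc
Orm2: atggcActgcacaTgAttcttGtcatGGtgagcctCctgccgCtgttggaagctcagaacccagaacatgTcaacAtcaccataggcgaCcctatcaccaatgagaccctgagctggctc
Of the 31-base words of the transcripts, 30.1% in Saa1, 27.3% in Saa2, 27.5% in Orm1 and 34.1% in Orm2 also occur at another locus, against 5.71% in Saa3. Reads from such stretches could have been given to the wrong paralog or left out, so the split between Saa1 and Saa2, and between Orm1 and Orm2, is uncertain. Saa3 is 74.3% identical to Saa1 in its coding sequence, and Apcs and Crp, the pentraxin pair, are 58.1% identical to each other.

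Promoter sequence was found in RefSeq (GRCm38.p6) for 8 of the 10 genes, from 250 bases before to 50 bases after the start. The 220 bases before the start are printed for these 8 genes, because they carry matches to motifs of the factors named above. In the first 6 genes capitals mark a match to the C/EBP motif TTGCNNAA on either strand.
Saa1 (chr7:46742981-46743200, minus strand): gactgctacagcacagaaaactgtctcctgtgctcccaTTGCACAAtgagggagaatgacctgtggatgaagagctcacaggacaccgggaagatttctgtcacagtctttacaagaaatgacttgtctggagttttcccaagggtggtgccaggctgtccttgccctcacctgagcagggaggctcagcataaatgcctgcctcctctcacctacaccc
Saa2 (chr7:46751613-46751832, plus strand): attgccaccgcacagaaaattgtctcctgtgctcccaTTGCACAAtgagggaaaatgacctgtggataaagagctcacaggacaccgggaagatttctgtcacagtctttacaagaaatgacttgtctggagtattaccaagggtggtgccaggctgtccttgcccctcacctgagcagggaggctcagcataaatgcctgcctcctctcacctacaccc
Saa3 (chr7:46715677-46715896, minus strand): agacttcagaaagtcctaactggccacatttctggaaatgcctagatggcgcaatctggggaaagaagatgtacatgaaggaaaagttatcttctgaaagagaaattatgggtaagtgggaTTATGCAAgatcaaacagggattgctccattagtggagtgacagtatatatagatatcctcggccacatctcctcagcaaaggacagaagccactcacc
Saa4 (chr7:46732604-46732823, minus strand): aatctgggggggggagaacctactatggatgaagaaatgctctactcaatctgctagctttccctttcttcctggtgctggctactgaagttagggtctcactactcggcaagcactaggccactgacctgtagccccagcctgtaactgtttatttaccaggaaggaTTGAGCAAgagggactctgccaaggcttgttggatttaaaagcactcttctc
Orm2 (chr4:63362229-63362448, plus strand): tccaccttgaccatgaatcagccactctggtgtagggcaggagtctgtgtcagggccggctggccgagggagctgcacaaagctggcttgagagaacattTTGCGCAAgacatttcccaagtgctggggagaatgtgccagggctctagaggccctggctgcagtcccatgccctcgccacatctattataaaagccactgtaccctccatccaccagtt
Lcn2 (chr2:32387740-32387959, minus strand): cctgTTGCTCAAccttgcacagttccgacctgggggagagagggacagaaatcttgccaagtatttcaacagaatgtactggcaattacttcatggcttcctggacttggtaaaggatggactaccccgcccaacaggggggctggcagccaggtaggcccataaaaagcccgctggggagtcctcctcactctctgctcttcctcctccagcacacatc
The match began at position -182 in Saa1, -183 in Saa2, -99 in Saa3, -245 and -52 in Saa4, -120 in Orm2 and -216 in Lcn2, counting -1 as the base before the start. Saa4, the constitutive form, thus had 2 matches, more than any other of the 8. The stretches of Saa1 and Saa2 were 95.5% identical to each other, whereas those of Saa1 and Saa3 were 48.4% identical. Of all 32851 promoters of the same length, 10.8% held the C/EBP motif. Apcs and Crp had no C/EBP match and, like Saa3 at position 6 after its start, carried the letters CTGGGA, an element described for interleukin 6 responses, which 31.8% of all promoters held. In the following sequences capitals mark that element as it reads on the strand shown.
Apcs (chr1:172895055-172895274, minus strand): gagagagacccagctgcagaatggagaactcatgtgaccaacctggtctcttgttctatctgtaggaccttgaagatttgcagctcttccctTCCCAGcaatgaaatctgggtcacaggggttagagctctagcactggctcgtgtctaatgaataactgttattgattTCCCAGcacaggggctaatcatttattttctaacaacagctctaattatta
Crp (chr1:172697836-172698055, plus strand): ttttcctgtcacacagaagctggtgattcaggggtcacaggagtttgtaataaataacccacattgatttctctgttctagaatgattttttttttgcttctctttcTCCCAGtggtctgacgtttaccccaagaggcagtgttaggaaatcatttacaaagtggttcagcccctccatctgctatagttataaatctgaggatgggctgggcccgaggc
The STAT motif TTCNNNGAA (8.30% of all promoters) was found only in Apcs, at position -244 upstream of the stretch shown, and the kappaB motif (1.63%) in none of the 8. These are matches of letters within a short window and say nothing about binding.

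The 10 genes covered a wide range of levels. By mean RPKM over all 18 libraries, Hp was highest at 2954 and ranked 17th among the tested genes, followed by Saa1 (1140 RPKM), Saa2 (1007 RPKM), Orm1 (880 RPKM), Crp (270 RPKM), Lcn2 (173 RPKM), Apcs (156 RPKM), Saa4 (143 RPKM), Orm2 (142 RPKM) and Saa3 (14.1 RPKM). This order rests on old HFD replicate 4. In young ND, by contrast, the order was Hp (1641 RPKM), Orm1 (479 RPKM), Crp (285 RPKM), Saa4 (137 RPKM), Apcs (69.6 RPKM), Saa1 (41.2 RPKM), Saa2 (15.8 RPKM), Orm2 (6.72 RPKM), Saa3 (5.18 RPKM) and Lcn2 (3.12 RPKM). Of neighbours in that order, Orm2 and Saa3 and then Lcn2 lay close together, with SDs of 0.156, 0.828 and 1.51 RPKM. Together the 10 genes made up 0.294 to 0.392% of counted reads in young ND, 0.332 to 0.532% in old ND, 0.385 to 0.748% in young HFD and 0.486 to 1.05% in 3 of the old HFD libraries. In old HFD replicate 4 they made up 4.06%, of which Saa1 and Saa2 took 1.72% of all counted reads.

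**Figure D1:**
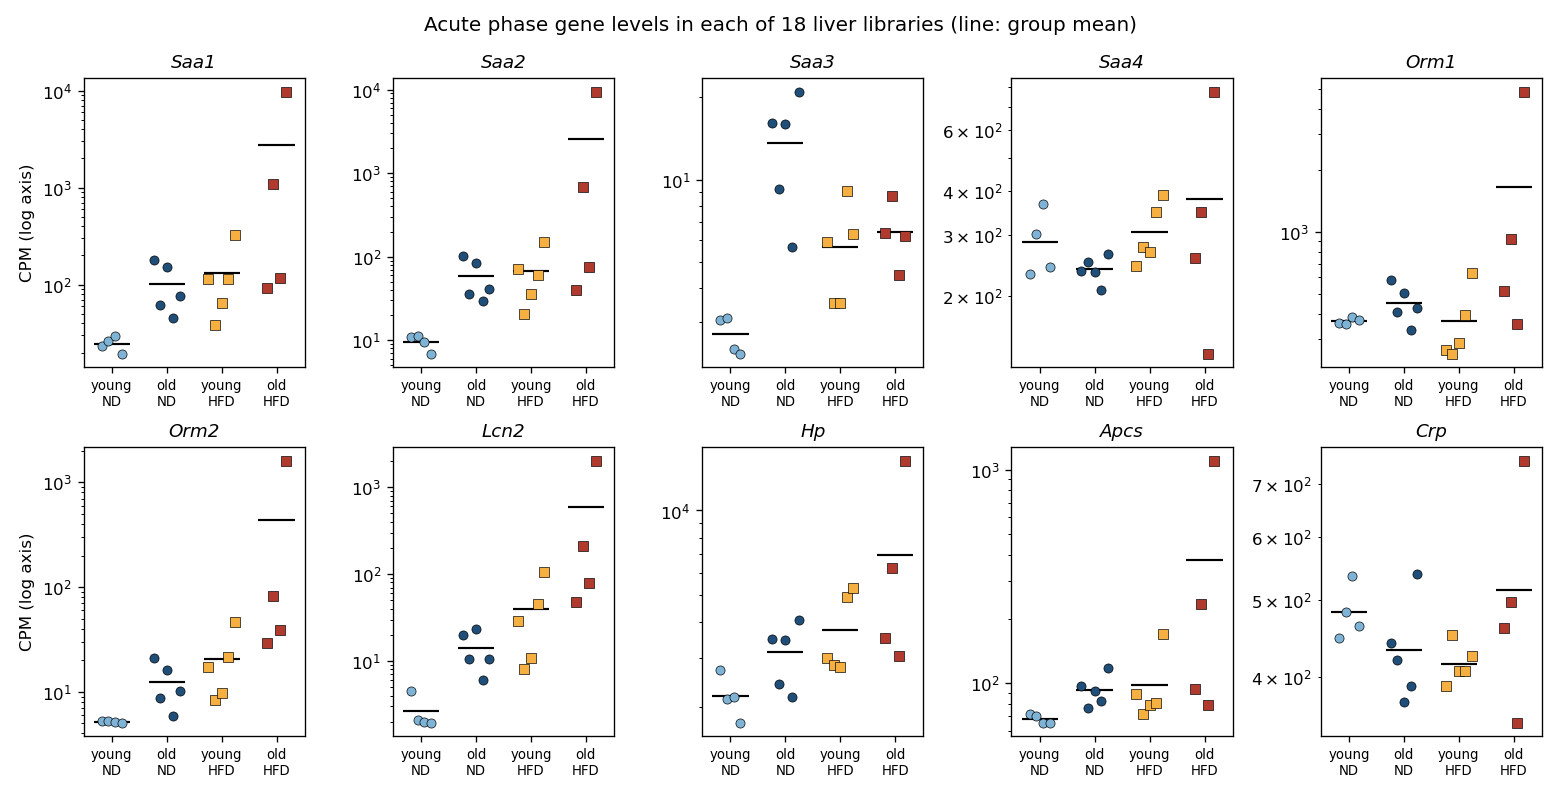
CPM on a log axis (each panel with its own range) of the 10 acute phase genes in young ND (n = 4), old ND (n = 5), young HFD (n = 5) and old HFD (n = 4), where each point is 1 library and the line is the group mean. Old HFD replicate 4 is the highest point for 9 genes, whereas Saa3 is highest in old ND, at up to 21.0 CPM.

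Saa1 and Saa2 encode the serum amyloid A apolipoproteins of the acute phase, which travel on high-density lipoprotein. Saa1 was 23.3, 26.6, 29.9 and 19.2 CPM in young ND replicates 1 to 4 and 178.7, 61.9, 150.5, 45.7 and 76.5 CPM in old ND replicates 1 to 5. It was 113.7, 38.2, 65.2, 114.1 and 326.4 CPM in young HFD replicates 1 to 5 and 92.3, 1084, 118.1 and 9771 CPM in old HFD replicates 1 to 4. Every library of the other groups exceeded every young ND library, and old HFD spread over both the range of young HFD and far above it. Saa2 was 10.8, 11.2, 9.46 and 6.81 CPM in young ND and 102.4, 36.1, 84.7, 29.4 and 41 CPM in old ND, again without overlap. It was 71.9, 20.5, 35.8, 61.0 and 148.6 CPM in young HFD and 39.5, 680.3, 76.2 and 9483 CPM in old HFD.

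Saa3 is the serum amyloid A gene that is also made outside hepatocytes, in macrophages and adipose tissue among others, and Saa4 encodes the constitutive form. Saa3 was 3.07, 3.11, 2.39 and 2.30 CPM in young ND and 16.1, 9.25, 16.0, 5.68 and 21.0 CPM in old ND. It was 5.89, 3.52, 3.55, 9.06 and 6.31 CPM in young HFD and 6.37, 8.73, 4.49 and 6.20 CPM in old HFD. Old ND thus held the highest libraries, and old HFD replicate 4 lay within the range of its group and of young HFD for this gene. Saa3 rested on 61 to 467 counts per library. Macrophage and Kupffer cell markers (12 genes) summed to 382 to 602 CPM in young ND, 514 to 795 CPM in old ND, 379 to 663 CPM in young HFD and 786 to 1174 CPM in old HFD, and their part in the Saa3 levels was not tested. Saa4 ranged from 231 to 368 CPM in young ND, 208 to 264 CPM in old ND, 245 to 391 CPM in young HFD and 136 to 776 CPM in old HFD, with all groups overlapping.

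Orm1 and Orm2 encode the orosomucoids, or alpha-1-acid glycoproteins, which bind drugs and lipids in plasma. Orm1 was 360.4, 356.7, 385.6 and 373.2 CPM in young ND, 583.7, 408.0, 501.5, 330.7 and 427.4 CPM in old ND, 266.5, 253.1, 288.3, 393.9 and 631.4 CPM in young HFD, and 515.0, 929.4, 357.7 and 4854 CPM in old HFD. The groups overlapped in all 4 contrasts. Orm2 was nearly constant in young ND at 5.27, 5.22, 5.10 and 5.00 CPM and was 21.2, 8.69, 16.0, 5.85 and 10.2 CPM in old ND. It was 17.2, 8.44, 9.73, 21.4 and 46.7 CPM in young HFD and 29.1, 82.5, 39.1 and 1615 CPM in old HFD. All young ND libraries lay below all others, and all old HFD libraries lay above all old ND libraries.

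The paralogs differed in their ratio between groups. Orm1 had 68.4 to 75.7 times the counts of Orm2 in young ND, 27.5 to 56.6 times in old ND and 13.5 to 29.99 times in young HFD. In old HFD replicates 1 to 4 the ratio was 17.7, 11.3, 9.15 and 3.01. Young ND and old ND did not overlap in this ratio, whereas young HFD overlapped with both old groups. Saa1 had 2.15 to 3.16 times the counts of Saa2 in young ND, 1.56 to 1.87 times in old ND, 1.58 to 2.20 times in young HFD, and 2.33, 1.59, 1.55 and 1.03 times in old HFD. The ratios are subject to the shared sequence described above and, between diets, to the separate tables.

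**Figure D2:**
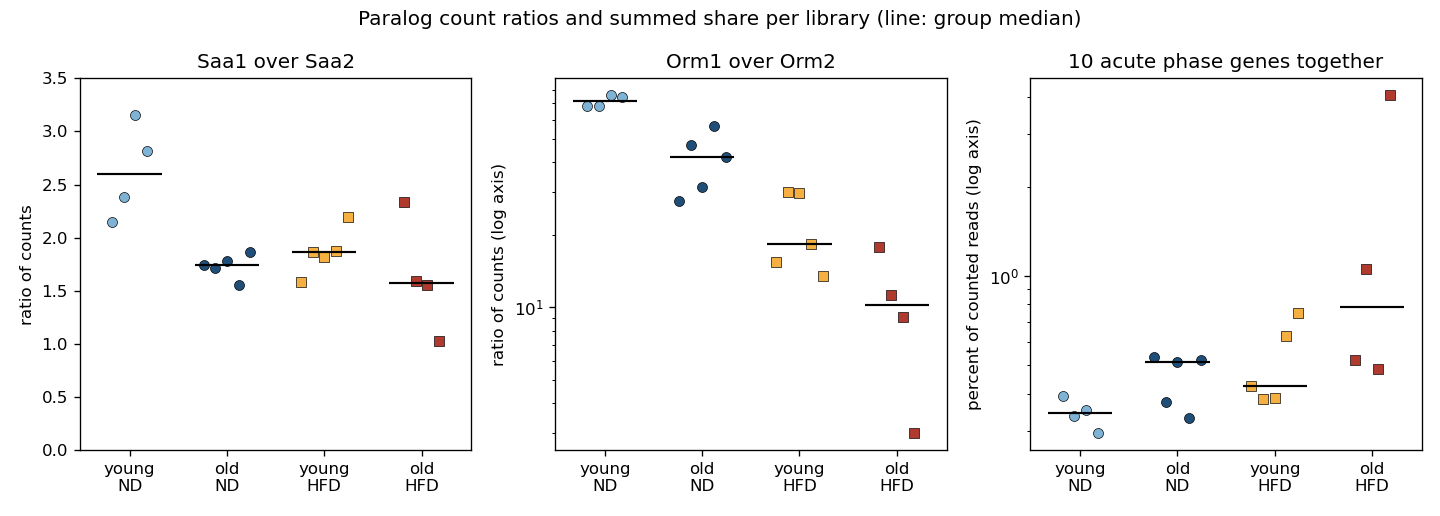
Ratio of Saa1 to Saa2 counts (linear axis), ratio of Orm1 to Orm2 counts (log axis) and share of counted reads in percent taken by the 10 genes (log axis), for each library of the 4 groups, with lines at the group medians. Orm1 exceeded Orm2 by 68.4 to 75.7 times in young ND and by 3.01 times in old HFD replicate 4, where the 10 genes took 4.06% of reads.

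Lcn2 encodes lipocalin 2, which binds bacterial siderophores and is made by hepatocytes and stored in neutrophil granules, and Hp encodes haptoglobin, which binds free haemoglobin. Lcn2 was 4.54, 2.11, 1.97 and 1.92 CPM in young ND and 20.1, 10.6, 23.3, 6.10 and 10.5 CPM in old ND. It was 28.7, 8.05, 10.9, 45.2 and 105.2 CPM in young HFD and 47.2, 208.0, 77.9 and 2025 CPM in old HFD. Young ND lay below every other library, and old HFD lay above every old ND library but overlapped with young HFD. Hp was 2713, 2146, 2171 and 1753 CPM in young ND, 3504, 2418, 3472, 2175 and 4081 CPM in old ND, 2990, 2825, 2779, 4927 and 5315 CPM in young HFD, and 3514, 6271, 3032 and 15050 CPM in old HFD. Of the 4 contrasts, only young HFD over young ND had no overlap for Hp.

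Apcs and Crp encode the pentraxins, pattern recognition proteins that bind phosphorylated surfaces of microbes and dying cells. Apcs was 72.1, 70.5, 65.0 and 65.3 CPM in young ND, 96.7, 76.9, 92.4, 82.9 and 118.2 CPM in old ND, 89.3, 71.5, 78.9, 80.6 and 170.9 CPM in young HFD, and 94.3, 235.1, 79.5 and 1104 CPM in old HFD. Old ND lay above young ND without overlap, and the groups overlapped in the other 3 contrasts. Crp stayed between 349.2 and 749.1 CPM in all 18 libraries, and its groups overlapped in every contrast.

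To compare ages on the normal diet, old ND was set against young ND. Saa3 rose with age by 2.33 ± 0.36 (log2, SE), a 5.02-fold difference (adjusted p = 0.00143, edgeR quasi-likelihood test), and was the only one of the 10 genes called at an adjusted p under 0.05. Over all genes tested, 6.89% were called higher and 4.52% lower in this contrast. The Saa3 difference was called in each of the 18 fits that left out 1 library, where it lay between 2.13 and 2.52. Saa2 (log2 difference 2.62 ± 1.21, adjusted p = 0.168), Lcn2 (2.44 ± 1.14, adjusted p = 0.176), Saa1 (2.05 ± 1.08, adjusted p = 0.228) and Orm2 (1.27 ± 1.06, adjusted p = 0.465) were not called, nor was Apcs (0.45 ± 0.58, adjusted p = 0.653). For these 5 genes and Saa3, however, all 5 old ND libraries were above all 4 young ND libraries, a separation upward that 7.79% of all tested genes showed. The 4 groups shared one estimate of the spread, which in these genes includes old HFD replicate 4. In a fit to the ND groups alone, which called 10.7% of the genes it tested, the same 6 genes were called, among them Saa2 (adjusted p = 0.00914), Lcn2 (adjusted p = 0.0120) and Saa1 (adjusted p = 0.0197), and without old HFD replicate 4 Saa3 and Saa2 (adjusted p = 0.0460) were, where 14.7% of all genes were called. Orm1 (0.29 ± 0.57), Hp (0.51 ± 0.38), Saa4 (-0.26 ± 0.33) and Crp (-0.16 ± 0.16) were not called, and their groups overlapped. The median log2 difference of the 10 genes was 0.89 against 0.02 over all genes.

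To ask about diet in young mice, young HFD was set against young ND, a contrast that also compares the tables. Lcn2 rose by 3.94 ± 1.17 (15.3-fold, adjusted p = 0.0255) and Saa3 by 1.07 ± 0.36 (2.10-fold, adjusted p = 0.0442), making 2 of the 10 genes, against 13.8% of all genes called higher and 6.29% called lower. Both calls were close to the threshold. With genes counted alike in both tables only, Lcn2 was higher by 3.98 and no longer called (adjusted p = 0.0555), and Saa3 was left out. Neither was called with limma voom weights (Lcn2 3.32, adjusted p = 0.0807, and Saa3 0.97, adjusted p = 0.0874). The replicate number as a block in edgeR also ended both calls (Lcn2 3.16, adjusted p = 0.0911, and Saa3 0.95, adjusted p = 0.11), while DESeq2 called both. Leaving out 1 library ended the Lcn2 call in 4 of 18 fits, namely those without young HFD replicate 5 (3.16) or young ND replicates 2, 3 or 4, and the Saa3 call in 11 of 18. Saa2 (2.82 ± 1.21, adjusted p = 0.125), Saa1 (2.41 ± 1.10, adjusted p = 0.148), Orm2 (2.02 ± 1.06, adjusted p = 0.214) and Hp (0.78 ± 0.38, adjusted p = 0.179) were not called. In these 4 genes, as in Lcn2 and Saa3, all 5 young HFD libraries were above all 4 young ND libraries, which 16.6% of all tested genes showed. The fit to the young groups alone called the same 6 genes higher and Crp lower (-0.21, adjusted p = 0.0269), and it called 31.8% of the genes it tested. Without old HFD replicate 4 the calls were Saa1, Saa2, Orm2, Lcn2 and Hp, against 21.9% of all genes. Apcs (0.53 ± 0.58), Saa4 (0.10 ± 0.33) and Orm1 (-0.01 ± 0.57) overlapped between the groups, and the median of the 10 genes was 0.92 against 0.00 over all genes.

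For age on the high-fat diet, old HFD over young HFD, the values of the 10 genes are a description, and how many passed the threshold is given only as a count, from which nothing is read because the genes were chosen with these values known. Saa2 was higher by 5.25 ± 1.23 (log2, SE), Orm2 by 4.41 ± 1.02, Saa1 by 4.39 ± 1.11, Lcn2 by 3.89 ± 1.00, Orm1 by 2.18 ± 0.58 and Apcs by 1.94 ± 0.58, and these 6 passed the threshold, where 11.6% of all genes were called higher and 6.51% lower. In each of these 6 genes the groups overlapped, as they did in Hp (0.89 ± 0.38), Crp (0.31 ± 0.16), Saa4 (0.31 ± 0.33) and Saa3 (0.18 ± 0.33), so that 0 of the 10 genes separated upward against 9.76% of all genes. Without old HFD replicate 4 none of the 10 passed, where 12.5% of all genes did, and the differences were 1.98 for Saa2, 1.72 for Saa1, 1.49 for Lcn2, 1.28 for Orm2, 0.72 for Orm1, 0.48 for Apcs, 0.20 for Saa3, 0.19 for Hp and 0.08 for Crp, while Saa4 turned to -0.30.

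For diet in old mice, old HFD over old ND, Saa2 was higher by 5.45 ± 1.24, Lcn2 by 5.38 ± 1.08, Orm2 by 5.16 ± 1.06, Saa1 by 4.75 ± 1.13, Apcs by 2.02 ± 0.58, Orm1 by 1.89 ± 0.57 and Hp by 1.15 ± 0.38. These 7 passed the threshold upward, where 19.3% of all genes did, and Saa3 passed it downward at -1.08 ± 0.33, where 12.8% did. The old HFD values were known when the 10 genes were chosen. All counts of genes that passed in this contrast are therefore a description from which nothing is read. Lcn2 and Orm2 were the genes whose old HFD libraries all lay above old ND, 2 of 10 against 13.5% of all genes. Without old HFD replicate 4, the genes that passed were Lcn2 (2.98), Saa2 (2.19), Orm2 (2.03) and, downward, Saa3 (-1.05), against 26.6% of all genes called in either direction, and the difference was 2.08 for Saa1, 0.56 for Apcs, 0.46 for Hp and 0.43 for Orm1. Saa4 (0.67 ± 0.33, and 0.07 without that library) and Crp (0.25 ± 0.16, and 0.03) did not pass. The Saa3 difference no longer passed with the replicate number as a block (-0.94), with voom weights (-0.66) or in a fit to the old groups alone (-1.09). Orm1 and Apcs did not pass in any of these fits either. Saa1 and Saa2 did not pass with the block or voom weights, and Hp did not with voom weights or the old groups alone. Lcn2 and Orm2 passed in each of them. The age and diet contrasts that end in old HFD share its 4 libraries and are not independent of each other.

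**Figure D3:**
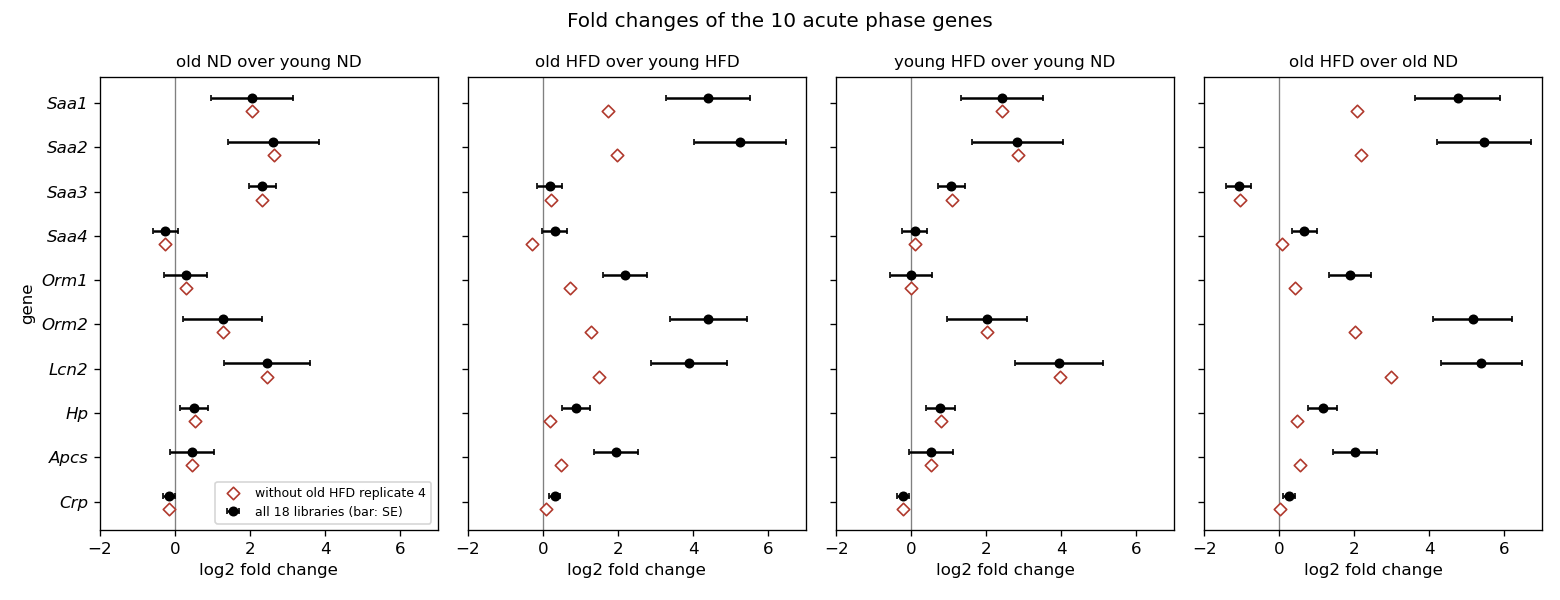
Log2 fold changes of the 10 genes in the age and diet contrasts, with filled circles and SE bars for all 18 libraries and open diamonds for the same fit without old HFD replicate 4. The diamonds lie on the circles in the contrasts without old HFD, and for Saa2 in old HFD over young HFD the value moved from 5.25 to 1.98.

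Whether the diet difference depended on age was described by the interaction, in which a constant effect of the tables cancels. It was -2.15 ± 0.49 for Saa3, 3.14 ± 1.40 for Orm2, 2.63 ± 1.56 for Saa2, 2.34 ± 1.43 for Saa1, 1.90 ± 0.80 for Orm1, 1.49 ± 0.81 for Apcs, 1.45 ± 1.46 for Lcn2 and 0.38 to 0.57 for Hp, Crp and Saa4. None of the 10 was called by edgeR, where 0.126% of all genes were, 4 of the 10 had an unadjusted p under 0.05 against 11.6% of all genes, and DESeq2 called 1, Saa3, against 1.49% of all genes. The old HFD values were known when the 10 genes were chosen, so these counts are a description and nothing is read from them. Without old HFD replicate 4 the interaction was -0.34 for Saa1, -0.65 for Saa2, -0.97 for Lcn2, -0.32 for Hp and -0.04 for Saa4, the opposite sign, and it was -2.13 for Saa3, 0.43 for Orm1, 0.23 for Crp, 0.02 for Apcs and 0.00 for Orm2. The Saa3 interaction was negative in every fit that left out 1 library, between -2.35 and -1.93.

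Old HFD replicate 4 was the highest of all 18 libraries for 9 of the 10 genes, the exception being Saa3 at 6.20 CPM. The share of all genes that were highest in this library is not given, so such counts are a description only. It exceeded the next highest library by 19.6 times for Orm2, 13.9 times for Saa2, 9.74 times for Lcn2, 9.02 times for Saa1, 5.22 times for Orm1, 4.70 times for Apcs, 2.40 times for Hp, 1.98 times for Saa4 and 1.39 times for Crp. Old HFD replicate 2 was among the 2 highest libraries for 7 of the genes. All 13 neutrophil markers were also highest in old HFD replicate 4 and summed there to 430 CPM, against 11.5 to 15.7 CPM in the other old HFD libraries and 3.35 to 23.2 CPM in all 17 others. The most abundant were S100a9 at 106 CPM, S100a8 at 81.2 CPM, Ngp at 72.7 CPM, Ltf at 57.7 CPM and Mpo at 42.9 CPM, while Ly6g, a defining surface marker, was at 23 counts there and at 0 in 15 libraries. The part of these cells in the levels of Lcn2 and the other genes was not tested. Macrophage and Kupffer markers summed to 1174 CPM in this library against at most 908.8 CPM in all 17 others. Endothelial, stellate and cholangiocyte markers (10 genes) summed to 583.2 CPM against at most 474.3 CPM. T and B cell markers (7 genes) summed to 11.0 CPM against 12.8 to 25.6 CPM in the other old HFD libraries, and hepatocyte markers to 61090 CPM against 53520 to 66150 CPM.

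**Figure D4:**
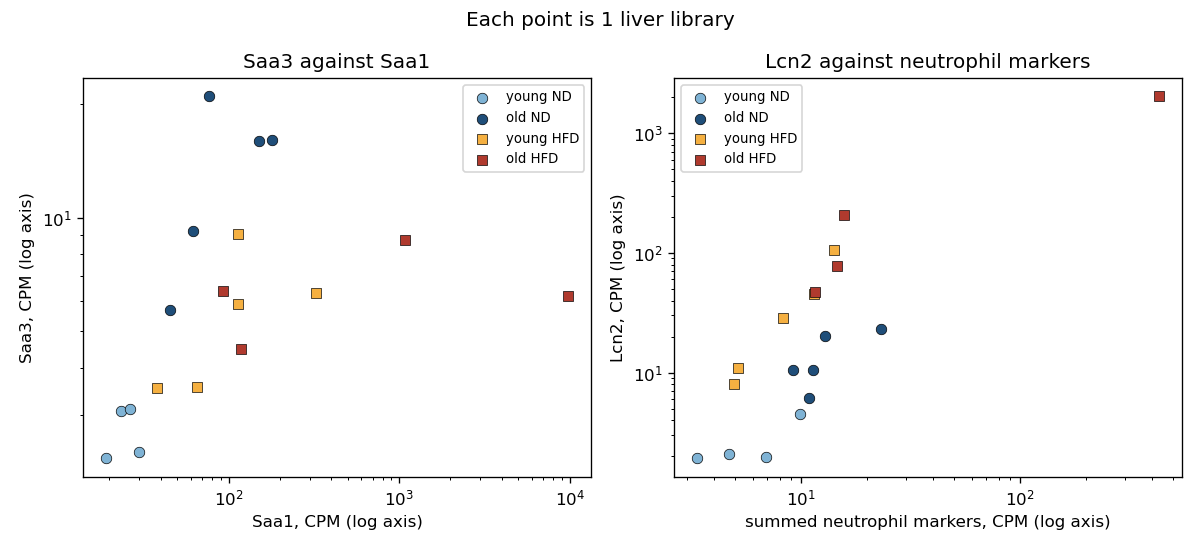
Left, CPM of Saa3 against Saa1, and right, CPM of Lcn2 against the summed CPM of 13 neutrophil markers, for the 18 libraries coloured by group on log axes. Old HFD replicate 4 lies at 9771 CPM of Saa1 with 6.20 CPM of Saa3, and at 430 CPM of neutrophil markers with 2025 CPM of Lcn2.

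The members tended to be high in the same livers. Across the 9 HFD libraries, Spearman's rho was positive in all 45 pairs of the 10 genes with a median of 0.72, and it lay between 0.80 and 1.00 in the 15 pairs among Saa1, Saa2, Orm1, Orm2, Lcn2 and Hp. Saa3 reached 0.37 to 0.72 with the others there, whereas on ND it was at 0.90 with Saa1, 0.95 with Saa2, 0.93 with Orm2, 0.95 with Apcs and 0.87 with both Lcn2 and Hp, in a range from -0.20 (Crp) to 0.95. Across the 9 ND libraries 30 of 45 pairs were positive, the same 15 pairs lay between 0.67 and 0.98, and pairs with Crp lay between -0.60 and 0.75. Saa4 ran there from -0.37 with Lcn2 and Apcs to 0.75 with Crp. These values describe 9 libraries from 2 age groups counted in 1 table, and age contributes to them. By Pearson's r of log2 CPM with Saa1, the 5 most similar genes on ND were C1ra (0.99), Eif4e3 (0.97), Hpx (0.97), Serping1 (0.96) and Plbd2 (0.96), of which C1ra, Hpx and Serping1 encode plasma proteins made in the liver. On HFD they were Dnajc12, Gas6, Serpina10, Cpne8 and Cyb561, at 0.97 to 0.98, and at 0.92 to 0.97 without old HFD replicate 4. For Lcn2 they were Tcirg1, H2-Q7, H2-Q9, Cxcl16 and H2-D1 on ND (0.97 to 0.99) and Rpl9, Socs3, Steap4, Hpx and Gas6 on HFD (0.96 to 0.97, and 0.89 to 0.95 without old HFD replicate 4).

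The other positive acute phase genes, a list of 25 with fibrinogens, complement and metallothioneins, were called in 0 cases for age on ND by edgeR and 1 by DESeq2, in 13 higher and 1 lower for age on HFD, in 1 higher for diet in young and in 12 higher for diet in old. Over all genes the upward shares in that order were 6.89, 11.6, 13.8 and 19.3%, so the single call for diet in young lay under the background. Mt2 and Mt1, metal-binding metallothioneins, were the furthest, higher by 5.20 ± 1.24 (adjusted p = 0.00940) and 4.19 ± 1.07 (adjusted p = 0.0136) for age on HFD. Orm3, the third orosomucoid, was higher by 3.22 ± 0.75 (adjusted p = 0.00865) and Cd14, the lipopolysaccharide co-receptor, by 2.13 ± 0.51 (adjusted p = 0.00865) in the same contrast. Il1rn, the interleukin 1 receptor antagonist, was the gene called for diet in young, at 1.295 ± 0.326 (adjusted p = 0.00723). Lrg1, a leucine-rich glycoprotein of the acute phase, was higher by 1.85 ± 0.45 for diet in old (adjusted p = 0.00479), as were Mt2 (5.44 ± 1.27, adjusted p = 0.00390), Mt1 (4.66 ± 1.10, adjusted p = 0.00441) and Orm3 (3.25 ± 0.77, adjusted p = 0.00429). An antisense gene covers 355 bases of Mt2, which the strand settings of the tables treat differently. Without old HFD replicate 4, 4 of the 25 were called for age on HFD and 5 for diet in old, but 6 for age on ND and 8 for diet in young, where 12.5, 26.6, 14.7 and 21.9% of all genes were called in either direction. The counts for both old HFD contrasts were thus near or under the background. Those for age on ND and diet in young were above it in this fit, unlike with all libraries. Without that library, Mt2 and Mt1 were no longer called for age on HFD (0.85, adjusted p = 0.354, and 0.52, adjusted p = 0.558) or for diet in old (1.09, adjusted p = 0.153, and 1.00, adjusted p = 0.144), and Mt2 lay at 949.9 CPM in it against 5.07 to 21.3 CPM in the other old HFD libraries. Orm3 was then higher by 1.56 for age on HFD (adjusted p = 0.0538) and by 1.59 for diet in old (adjusted p = 0.0302), Cd14 by 0.99 (adjusted p = 0.0287) and Lrg1 by 1.26 (adjusted p = 0.0285). List medians with all libraries were 0.32, 0.95, 0.52 and 0.73 in the order given, against 0.02, 0.00, 0.00 and 0.02 over all genes.

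The negative acute phase list held 11 genes, and over all genes 6.51% were called lower for age on HFD and 12.8% for diet in old. For age on ND 2 were called higher, against 6.89% of all genes, Apoa1 of high-density lipoprotein (0.68 ± 0.14, adjusted p = 0.00643) and albumin, Alb (0.46 ± 0.14, adjusted p = 0.0432). On HFD 4 fell with age, namely Ttr, the thyroxine carrier transthyretin (-0.74 ± 0.16, adjusted p = 0.00354), Serpina6, which carries corticosteroids (-0.66 ± 0.13, adjusted p = 0.00203), Rbp4, the retinol carrier (-0.50 ± 0.15, adjusted p = 0.0235), and Alb (-0.49 ± 0.14, adjusted p = 0.0208). Serpina6 (0.63 ± 0.13, adjusted p = 0.00113) and Apoa1 (0.41 ± 0.14, adjusted p = 0.0448) were higher with diet in young. With diet in old, Ttr (-0.70 ± 0.16, adjusted p = 0.00221), Alb (-0.68 ± 0.14, adjusted p = 0.00111) and Rbp4 (-0.58 ± 0.15, adjusted p = 0.00555) fell. Serpina6 was the only gene of the pathway lists called in the interaction (-0.95 ± 0.18, adjusted p = 0.0450). The hepatocyte marker sum, which includes Alb and Ttr, was 53520 to 66150 CPM in old HFD, below all other libraries at 68930 CPM or more. Of the 11 genes, 3 were called for age on HFD and 5 for diet in old without old HFD replicate 4, against 12.5 and 26.6% of all genes. Rbp4 was then not called for age on HFD (-0.36, adjusted p = 0.0733). The other values without that library were -0.67 for Ttr, -0.55 for Serpina6 and -0.48 for Alb with age on HFD, -0.62 for Ttr, -0.66 for Alb and -0.43 for Rbp4 with diet in old, and -0.84 for the Serpina6 interaction, all called.

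Among 28 tested regulators upstream of the acute phase genes, 2 were called higher for age on ND, 9 higher and 1 lower for age on HFD, 2 higher for diet in young, and 3 higher and 2 lower for diet in old. The upward shares over all genes were 6.89, 11.6, 13.8 and 19.3%, and 12.8% were lower for diet in old. Counts other than the 9 for age on HFD were near or under these shares. The 9 rest in part on old HFD replicate 4, whose values were known when the lists were chosen, so nothing is read from them. Tlr2, the receptor for bacterial lipopeptides, rose with age on ND (1.19 ± 0.23, adjusted p = 0.00453) and on HFD (1.07 ± 0.21, adjusted p = 0.00221). Socs3, the feedback inhibitor of STAT3 signalling, was higher with age on HFD by 2.21 ± 0.60 (adjusted p = 0.0187), and Il1r1, the interleukin 1 receptor, by 1.74 ± 0.57 (adjusted p = 0.0442). Osmr, the oncostatin M receptor, was higher with age on HFD (0.92 ± 0.30, adjusted p = 0.0398) and with diet in old (0.87 ± 0.30, adjusted p = 0.0349). Cebpd (0.93 ± 0.25, adjusted p = 0.0125) and Nfkb2 (0.48 ± 0.13, adjusted p = 0.0110) were higher with diet in young, and Il1rap, the interleukin 1 receptor accessory protein, fell with diet in old (-0.66 ± 0.14, adjusted p = 0.00133). Cebpd (0.67 ± 0.25, adjusted p = 0.0475) and Nfkb2 (0.66 ± 0.13, adjusted p = 0.000493) were also higher with diet in old, but exons of the opposite strand overlap both genes by 562 and 77 bases. Of the cytokines, Il6 and Osm had at most 4 counts in any library and could not be tested. Tnf, which encodes tumour necrosis factor and is named after its values were seen because its level was under that of the naming rule, rose with age on ND (1.54 ± 0.36, adjusted p = 0.0115) and on HFD (1.47 ± 0.30, adjusted p = 0.00272), on 2 to 55 counts per library and with no overlap in either contrast. The HFD value for Tnf was 1.60 without old HFD replicate 4 and still called. Macrophage and Kupffer markers were called higher in the same contrasts, 7 of 12 with age on ND and 10 with age on HFD. Without that library 8 and 10 were. Their part in the Tlr2 and Tnf levels was not tested. Il1b with age on ND (0.91 ± 0.34, adjusted p = 0.0907) and on HFD (0.50 ± 0.32, adjusted p = 0.321) and Il1a (0.25 ± 0.23, adjusted p = 0.513, and -0.25 ± 0.22, adjusted p = 0.479) were not called. On HFD they were at 0.32 for Il1b and -0.19 for Il1a without old HFD replicate 4. Of the 28 regulators, 5 were called for age on HFD and 3 for diet in old without old HFD replicate 4, against 12.5 and 26.6% of all genes. Socs3 (0.98, adjusted p = 0.147), Il1r1 (0.31, adjusted p = 0.588) and Osmr (0.28, adjusted p = 0.263) were then not called for age on HFD, nor were Osmr (0.23, adjusted p = 0.276) and Cebpd (0.36, adjusted p = 0.232) for diet in old. Socs3 lay at 68.95 CPM in that library against 9.64 to 12.2 CPM in the other old HFD libraries. Tlr2 with age on HFD (1.06), Nfkb2 (0.63) and Il1rap (-0.52) with diet in old were still called.

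Of 11 receptors and partners of the acute phase proteins, 2 were called higher for age on ND, 4 higher and 1 lower for age on HFD, 1 lower for diet in young, and 3 higher and 1 lower for diet in old. Over all genes the matching shares were 6.89% higher, 11.6% higher and 6.51% lower, 6.29% lower, and 19.3% higher and 12.8% lower. Lrp2, the endocytic receptor megalin that takes up lipocalins, was the gene that fell with diet in young (-1.39 ± 0.30, adjusted p = 0.00197, and -1.38 without old HFD replicate 4), and it is named after its values were seen. Cd163, the macrophage receptor that takes up haptoglobin bound to haemoglobin, fell with age on HFD by 1.97 ± 0.43 on the log2 scale (adjusted p = 0.00546), from 23.5 to 43.5 CPM in young HFD to 2.04 to 16.4 CPM in old HFD. With age on ND it was also lower (-1.13 ± 0.40), though not called (adjusted p = 0.0803). The ND groups did not overlap, at 26.41 to 41.95 CPM in young ND and 8.09 to 23.43 CPM in old ND. Fcgr1, the high-affinity immunoglobulin receptor that also binds pentraxins, rose with age on HFD (1.28 ± 0.23, adjusted p = 0.00105) and with diet in old (0.89 ± 0.23, adjusted p = 0.00605). Fpr1, a formyl peptide receptor, rose with age on ND (0.94 ± 0.26, adjusted p = 0.0261) and on HFD (1.28 ± 0.25, adjusted p = 0.00184). Fcgr3 was higher with age on HFD (0.85 ± 0.21, adjusted p = 0.00852) and with diet in old (0.70 ± 0.21, adjusted p = 0.0149), Cd36 was higher with diet in old (0.62 ± 0.20, adjusted p = 0.0256) and Fcgr2b was lower (-0.38 ± 0.11, adjusted p = 0.0108). Leaving out old HFD replicate 4, 5 receptors were called for age on HFD and 3 for diet in old, against 12.5 and 26.6% of all genes. Fcgr3 was then not called for diet in old (0.54, adjusted p = 0.0629), while Cd163 (-1.94), Fcgr1 (1.24), Fpr1 (1.07) and Fcgr3 (0.69) with age on HFD, and Fcgr1 (0.85), Cd36 (0.66) and Fcgr2b (-0.38) with diet in old, were still called. Macrophage and Kupffer markers moved in the same contrasts, with 7 of 12 called higher with age in ND livers, 10 with age in HFD livers and 7 with HFD in old mice, and 8, 10 and 4 of 12 without that library. Their part in the levels of Fcgr1, Fcgr3, Fpr1 and Cd163 was not tested.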

How the data were processed

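Whole-liver poly(A) RNA from 18 male mice was sequenced, 1 library per mouse. The deposited values are raw counts per gene; per the file headers and the submitters' processing notes, the authors aligned reads with STAR to mm10 (GRCm38) and counted exon reads of 1 RefSeq transcript per gene with HOMER, in an HFD table without strand selection and an ND table restricted to the gene's strand. The methods name another counting tool. Of 24537 genes, 14275 passed filterByExpr. All 4 groups entered 1 edgeR 4.0.16 quasi-likelihood model in R 4.3.3 (robust, TMM scaling, no covariate), which was tested on simulated data, with two-sided tests and Benjamini-Hochberg adjustment over all 14275 genes within a contrast. A call is an adjusted p under 0.05. Log2 CPM used a prior count of 2, and RPKM was computed from the listed transcript lengths. Fold changes are followed by ± a standard error (SE) derived from the test, the absolute log2 fold change divided by the square root of the quasi-likelihood F statistic. Groups were called apart when no CPM value overlapped.

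The members, lists and tests were chosen with earlier results of these data known. All members were named in each contrast, and from each other list up to 4 called genes of largest absolute fold change were named if their mean log2 CPM was 1 or more. Similar genes were the 5 of highest r among those whose mean log2 CPM was 2 or more. Annotation was compared with GENCODE M21, and 31-base words were counted in Python 3.11.15. The alternatives used DESeq2 1.42.0, limma 3.58.1 voom weights, other scalings and filters, compared groups only, the replicate number as a block, summed paralogs, genes counted alike in both tables, and leaving out each library. Labels name no shared cage, litter or day, so p-values measure the spread between these mice.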

Additional observations from a re-analysis of the deposited data

Results flagged for a closer look

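In each group the highest and the lowest library of every member was compared with its neighbour by Dixon's test at 95%. Of 40 such combinations 9 were marked, where chance marks about 1 in 20. On the log scale 2 of the 9 were marked, Lcn2 in young ND replicate 1 and Apcs in young HFD replicate 5, and none in old HFD replicate 4. Old HFD replicate 4 gave 6 of them, as the highest library of its group for Saa1 (9771 CPM), Saa2 (9483 CPM), Orm1 (4854 CPM), Orm2 (1615 CPM), Lcn2 (2025 CPM) and Apcs (1104 CPM). The genes were chosen with the high Lcn2 of that library known, so these 6 marks restate what chose them and are not independent evidence. Young HFD replicate 5 was far above its group for Saa1 (326.4 CPM) and Apcs (170.9 CPM). Young ND replicate 1 was above its group for Lcn2 (4.537 CPM), on 93 counts.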

How the results depend on the processing

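Leaving out each library in turn changed the count of members called to between 1 and 2 with age on ND, 0 and 8 with age on HFD, 0 and 5 with diet in the young, 4 and 9 with diet in the old, and 0 and 1 in the interaction, while the share of all genes called ran from 4.62 to 16.1%, 12.5 to 22.8%, 15.7 to 23.6%, 26.4 to 33.5% and 0.0416 to 0.309%. The lowest counts for age on HFD (0) and diet in old (4) came without old HFD replicate 4. The interaction call was Saa3, without old ND replicate 4. A fit to the compared groups only called 6 with age on ND, 0 with age on HFD, 7 with diet in the young and 4 with diet in the old, where it called 10.7, 15.4, 31.8 and 19.1% of all genes. DESeq2 called 4 for diet in young and 1 for the interaction (22.7 and 1.49% of all genes). Voom weights called 2 with age on HFD, 1 with diet in the young and 2 with diet in the old (17.1, 32.5 and 25.7% of all genes). The 1 with diet in the young was Hp (0.69), and neither Lcn2 nor Saa3 was called there. With no filter 1 was called for diet in young (14.9%). Among genes counted alike in both tables, which leave 5 members, the counts were 0 and 2 with age on ND and HFD, and 0 and 3 with diet in the young and the old (12.7, 19.8, 6.95 and 20.8% of all genes in that fit). The replicate number as a block gave 1 with age on HFD, 0 with diet in the young and 3 with diet in the old (15.1, 19.5 and 28.7% of all genes). Of 25 same-number pairs, 5 deviated together with r over 0.1 (range -0.175 to 0.250), a cut without a reference value. Whether mice of the same number share a batch or an order of processing cannot be told from these values. Over all fits that left out 1 library, the interaction ranged from -0.34 to 3.01 for Saa1, -0.65 to 3.14 for Saa2, -0.04 to 0.85 for Saa4, -0.97 to 2.22 for Lcn2 and -0.32 to 0.62 for Hp, and Saa4 from -0.30 to 0.58 with age on HFD, and these signs turned only without old HFD replicate 4. Voom moved the Saa2 interaction from 2.63 to -0.16. Of values smaller than their standard errors, voom turned Saa4 in age on HFD (-0.02), the block turned Saa4 in diet in young (-0.02), and at least 10 counts in every library turned Orm1 in diet in young (0.01). Leaving out 1 library, that Orm1 value ranged from -0.30 to 0.10, above 0 without young HFD replicate 1, 2 or 3 or young ND replicate 3, and Saa4 in diet in young from -0.01 (without young HFD replicate 5) to 0.24. The other 1434 member fold changes kept direction and call, 71 lost the call and 25 gained it. The cause was not tested.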

Other observations

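Old HFD replicate 4 was the highest of the 18 libraries for 22 of the 25 other positive acute phase genes, with Mt2 at 949.9 CPM against at most 21.3 CPM elsewhere and Orm3 at 81.1 CPM against at most 11.7 CPM. The 3 exceptions, named after their values were seen, were the hepcidin genes and Mbl2. Hamp, which encodes the iron hormone hepcidin, was 4.93 CPM in this library against 33.6 CPM or more in every other, and Hamp2 was 0.379 CPM against 2.11 CPM or more. Mbl2 was 280.5 CPM, within the range of the other libraries. Of the 11 negative acute phase genes, 4 were highest in this library, among them Trf, the iron carrier transferrin, at 53640 CPM against at most 22640 CPM, and 3 were lowest. Part of the Hamp and Hamp2 transcripts is shared, 33.7% and 46.9% of their 31-base words. This library was also the highest for 15 of the 28 tested upstream regulators and 5 of the 11 receptors. The share of all genes that were highest in it is not given, so the counts cannot be called particular to acute phase genes. None of these values was tested.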
